A study of Mus musculus with 2 samples.

Results

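The genes described here encode calmodulin (Calm2, Calm3), the calcium/calmodulin-dependent protein kinase CaMKII (Camk2a, Camk2b, Camk2d, Camk2g) and the class IIa histone deacetylases (Hdac4, Hdac5, Hdac9). They were taken by symbol, and all 9 were found among the 55536 annotated genes of the deposited gene tables. They were measured by total RNA-seq in the gastrocnemius, a calf muscle made mostly of fast fibres, of male adult mice labelled 5xFAD/CAST at an age between 8 and 10 months. The 5xFAD strain expresses mutant human transgenes from the neuronal Thy1 promoter, and CAST is a wild-derived inbred strain of the subspecies castaneus; every sample came from this cross. The study held a single group with 2 libraries, biological replicate 2 and biological replicate 1, whose biosamples are separate entries that name the same donor, each made from 300 ng of RNA.

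No wild-type, other tissue or other age was compared, so no value below can be read as an effect of the transgenes. With 1 library per side, no p-value is possible. A mean ± SD is over n = 2 libraries, whose spread may be technical. Expected counts over all genes came to 35412240 for replicate 2 and 35163970 for replicate 1. All 7 fast fibre markers exceeded 1 TPM (TPM is the deposited abundance, scaled for transcript length and library size) in both libraries, with summed levels of 86010 TPM in replicate 2 and 89342 TPM in replicate 1. None of the 8 neuron markers reached 1 TPM in either library, and they summed to 0.59 TPM in replicate 2 and 1.21 TPM in replicate 1. In bulk muscle, fewer cells of a type and less RNA per cell cannot be told apart.

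Calmodulin is the small calcium sensor of muscle and other cells, and it binds calcium in loops within EF-hand motifs. With calcium bound it opens CaMKII, a ring of kinase subunits that can then phosphorylate a threonine of their own regulatory segment and stay active after calcium falls. Class IIa histone deacetylases bind MEF2 transcription factors in the nucleus and hold down MEF2 targets. CaMK enzymes and protein kinase D phosphorylate serines in them, 14-3-3 proteins then bind, and the deacetylase is kept in the cytoplasm. In muscle this chain links calcium release to genes of oxidative metabolism and of the neuromuscular junction.

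The coding sequence that carries the first calcium-binding loop is shown for both calmodulin members, to show how genes that make the same protein can be told apart by reads. The sequences below are from the GENCODE M21 transcripts, read 5′ to 3′ on the coding strand, with mm10 coordinates. The loop spans codons 21 to 32 (chr17:87435873-87435908, reverse strand, in Calm2-201 and chr7:16917667-16917702, reverse strand, in Calm3-201), and capitals mark the 7 bases that differ.
Calm2 calcium loop: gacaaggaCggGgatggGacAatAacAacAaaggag
Calm3 calcium loop: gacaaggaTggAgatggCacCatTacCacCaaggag
Over the whole coding sequence of 447 bases, Calm2 and Calm3 were 82.6% identical. They differed at 78 bases, of which 74 were the last base of a codon, and at 0 amino acids.

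The stretch around the autophosphorylated threonine shows what the kinase genes share, and the capitals mark the threonine codon, number 287 in each of these transcripts. The coordinates are chr11:5988988-5989014 on the reverse strand for Camk2b-209, chr3:126797726-126797752 on the forward strand for Camk2d-206 and chr14:20760430-20760456 on the reverse strand for Camk2g-202. In Camk2a-203 the same codon is number 286.
Camk2b-209: atgcacagacaggagACTgtggaatgt
Camk2d-206: atgcacaggcaggagACTgtagactgc
Camk2g-202: atgcatcgccaagagACGgtagagtgc
For the deacetylases the stretch around a 14-3-3 serine is shown, with the serine codon in capitals (codon 245 in Hdac4-202, 251 in Hdac5-204 and 220 in Hdac9-201). All 3 stretches cross an intron, between 91991598 and 91996072 on chromosome 1 for Hdac4, 102205615 and 102205805 on chromosome 11 for Hdac5, and 34407881 and 34429513 on chromosome 12 for Hdac9, each on the reverse strand.
Hdac4-202: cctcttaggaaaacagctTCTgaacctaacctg
Hdac5-204: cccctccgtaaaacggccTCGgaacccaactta
Hdac9-201: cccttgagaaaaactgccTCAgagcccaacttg

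All 9 members exceeded 1 TPM in both libraries. Camk2a led with 191 TPM in replicate 2 and 210 TPM in replicate 1, a mean of 201 ± 13.2 TPM and rank 264 among 21951 protein-coding genes. Hdac9 was lowest with 4.69 TPM in replicate 2 and 2.75 TPM in replicate 1, a mean of 3.72 ± 1.37 TPM and rank 7352. The median member stood at 71.8 TPM, against 4.60 TPM over the 14361 genes whose mean count was 10 or more. Between these ends came Calm3, Camk2g, Calm2, Camk2b, Hdac5, Camk2d and Hdac4, in that order of mean level.

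**Figure D1:**
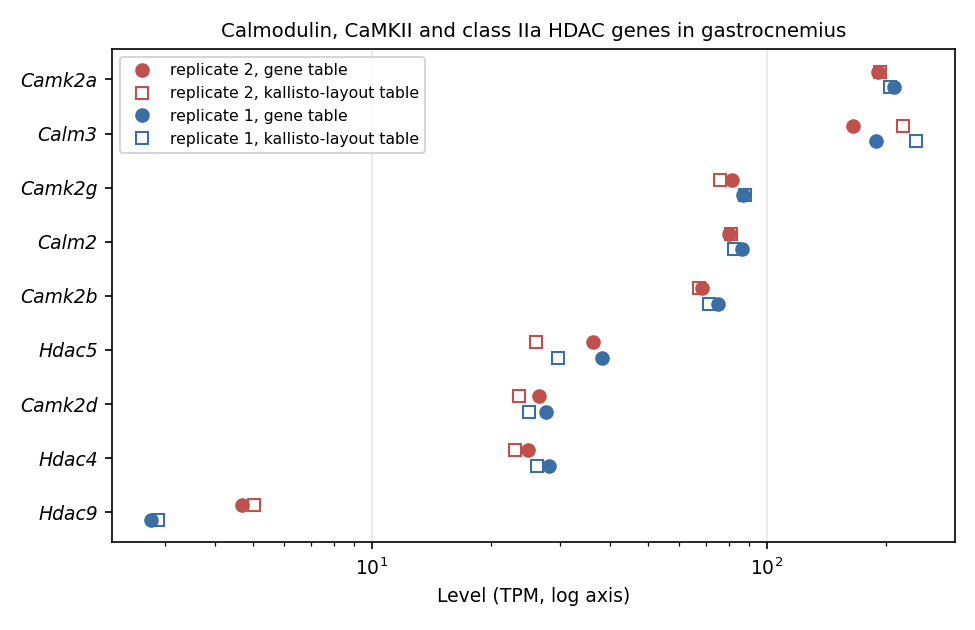
Level of each of the 9 genes in TPM (log axis) in replicate 2 and replicate 1, from the gene table (filled circles) and from the kallisto-layout transcript table summed per gene (open squares). In the gene table, mean levels run from 201 TPM for Camk2a down to 3.72 TPM for Hdac9, and Hdac9 is where the libraries lie farthest apart.

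The libraries separated 6 of the 8 neighbouring pairs in this order. Camk2g and Calm2 overlapped, as did Camk2d and Hdac4, so the order within these pairs is not resolved. A second deposited quantification, a transcript table with kallisto's columns (the kallisto-layout table), separated 5 of these pairs in the same direction. It placed Calm3 at 221 TPM in replicate 2 and 239 TPM in replicate 1, above Camk2a at 194 TPM in replicate 2 and 206 TPM in replicate 1. The top place is therefore not settled between Camk2a and Calm3. This order is one of gene TPM, which sums transcripts of every annotated class. Counting only transcripts with a complete coding sequence, Camk2d was above Hdac5. Camk2d then stood at 16.65 TPM in replicate 2 and 15.74 TPM in replicate 1, and Hdac5 at 11.3 TPM in replicate 2 and 13.95 TPM in replicate 1.

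Both calmodulin members were abundant, with Calm3 above Calm2 in both libraries and in both quantifications. Calm3 (ENSMUSG00000019370.10, chromosome 7, 16915379 to 16924114) stood at 165 TPM in replicate 2 and 189 TPM in replicate 1, a mean of 177 ± 16.8 TPM. Calm2 (ENSMUSG00000036438.13, chromosome 17, 87433412 to 87446935) stood at 80.4 TPM in replicate 2 and 86.5 TPM in replicate 1, a mean of 83.4 ± 4.3 TPM.

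Each calmodulin member was made almost wholly as a single coding transcript. Calm2-201 took 94.8% of Calm2's TPM in replicate 2 and 97.2% in replicate 1. Calm3-201 took 99.5% in replicate 2 and 99.2% in replicate 1. The kallisto-layout table gave Calm3-201 only 70.9% in replicate 2 and 71.7% in replicate 1, with the rest on the short transcripts Calm3-204 (482 bases) and Calm3-203 (490 bases). Of Calm3's estimated counts in that table, Calm3-201 took 95.2% in replicate 2 and 95.3% in replicate 1. A short transcript needs few reads to reach a high TPM, so the higher Calm3 level of that table rests on few reads. Reads were little divided between genes despite the likeness of the coding sequences, since the posterior SD of the count was at most 0.025% of the count for any of the 9 members, while it passed 5% for 6.17% of genes with a mean count of 10 or more.

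CaMKII was represented by all 4 of its genes, with Camk2a, the gene best known as the forebrain isoform, in first place. Camk2a (ENSMUSG00000024617.16, chromosome 18, 60925618 to 60988152) held 52.3 ± 0.36% of the summed CaMKII level of 384 ± 22.7 TPM. Camk2g (ENSMUSG00000021820.18, chromosome 14, 20734875 to 20794088), a broadly expressed gene, stood at 81.5 TPM in replicate 2 and 87.3 TPM in replicate 1, or 22.0 ± 0.23%. Camk2b (ENSMUSG00000057897.14, chromosome 11, 5969644 to 6066362), known in brain and skeletal muscle, stood at 68.6 TPM in replicate 2 and 75.1 TPM in replicate 1, or 18.7 ± 0.10%. Camk2d (ENSMUSG00000053819.16, chromosome 3, 126596302 to 126846326), the main cardiac gene, stood at 26.5 TPM in replicate 2 and 27.6 TPM in replicate 1, or 7.05 ± 0.22%. This order by gene TPM was the same in both libraries and in both quantifications. By expected counts, which are not scaled for length, Camk2b was above Camk2g. It had 6216 against 5290 in replicate 2, and 6432 against 5312 in replicate 1. Of the cardiomyocyte markers 2 of 7 reached 1 TPM, and they summed to 61.7 TPM in replicate 2 and 61.8 TPM in replicate 1. Of these sums Myh6, a myosin gene with close relatives, gave 56.9 TPM in replicate 2 and 56.5 TPM in replicate 1, and Nppb was at 0 in both. Their part in the Camk2d level was not tested.

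Most of the Camk2a level, in TPM, was assigned to transcripts without the kinase exons. Camk2a-204 and Camk2a-202 start 37936 and 37982 bases into the gene, downstream of 12 of the 18 exons of the full-length Camk2a-203. They encode 200 and 189 codons against 478 in Camk2a-203, without the autophosphorylated threonine or the kinase domain. This is the structure of αKAP, a muscle protein known to bind CaMKII through its association domain and anchor it to the sarcoplasmic reticulum membrane. Camk2a-204 stood at 87.6 TPM in replicate 2 and 94.6 TPM in replicate 1, Camk2a-202 at 34.6 TPM in replicate 2 and 39.5 TPM in replicate 1, and Camk2a-203 at 69.0 TPM in replicate 2 and 75.9 TPM in replicate 1.

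The transcripts without the kinase exons held 63.9% of Camk2a's TPM in replicate 2 and 63.8% in replicate 1. Of the expected counts they took 28.4% in replicate 2 and 28.5% in replicate 1, since Camk2a-203 is longer (4970 bases, against 979 and 1734). The kallisto-layout table gave them 67.7% of TPM in replicate 2 and 68.4% in replicate 1. Only their first exon, of 410 bases in Camk2a-204 and 364 in Camk2a-202, and a 33-base exon of Camk2a-204 lie outside Camk2a-203, and the last 41 bases of that first exon are shared. Reads in the other exons were divided among the forms by the quantification programs, and coverage along the gene was not analysed here. The posterior SD was 1.74% of the count of Camk2a-204 in replicate 2 and 1.73% in replicate 1. For Camk2a-202 it was 5.26% in replicate 2 and 5.40% in replicate 1. The kallisto-layout table put Camk2a-202 higher, at 46.8 TPM in replicate 2 and 53.6 TPM in replicate 1.

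**Figure D2:**
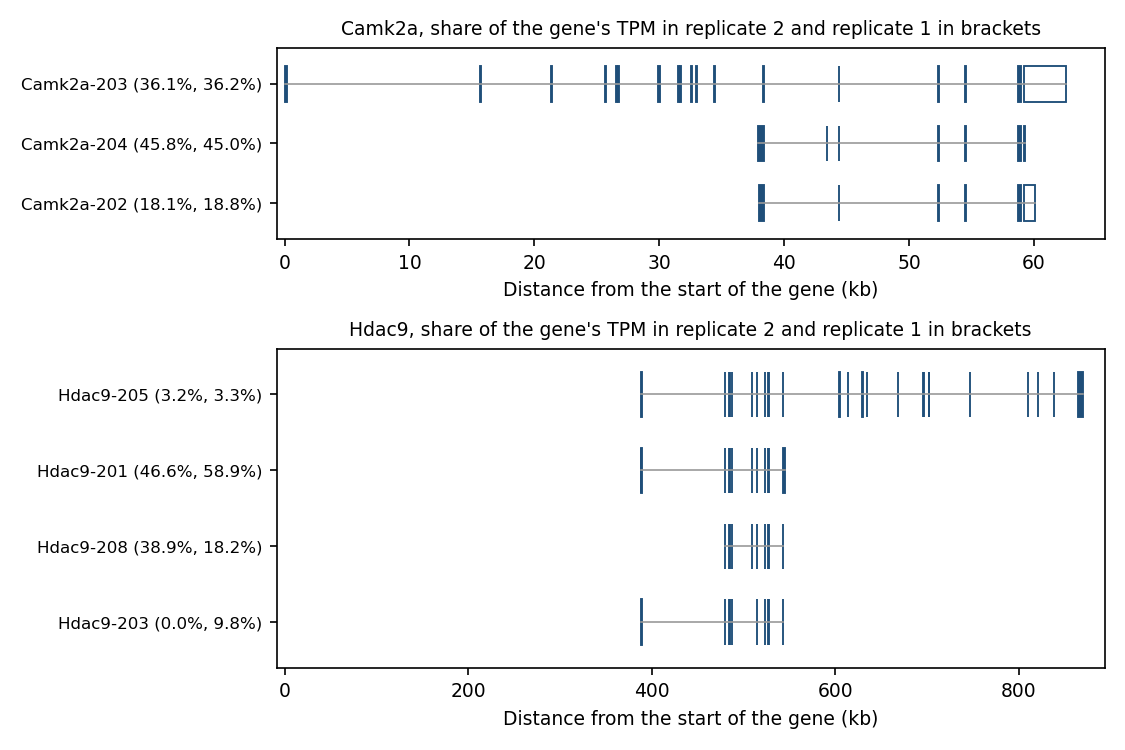
Exons of the Camk2a and Hdac9 transcripts that the text describes, by distance in kb from the start of the gene; filled boxes hold more than 1 coding base, the outline makes small exons look wider, and the share of the gene's TPM in replicate 2 and then replicate 1 is in brackets. Camk2a-204 and Camk2a-202 start after 12 of the 18 exons of Camk2a-203, and the Hdac9 forms with most of the TPM end before the downstream exons of Hdac9-205.

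Counting only complete coding transcripts (annotated as protein coding, with both ends of the coding sequence) that hold the autophosphorylation motif, Camk2a and Camk2b were about equal. Camk2a then stood at 69.1 TPM in replicate 2 and 75.9 TPM in replicate 1, and Camk2b at 68.4 TPM in replicate 2 and 73.8 TPM in replicate 1. Camk2a thus made up 34.2 ± 0.61% of kinase-coding CaMKII, Camk2b 33.5 ± 0.15%, Camk2g 24.7 ± 0.08% and Camk2d 7.65 ± 0.68%. Camk2g, above Camk2b by gene TPM, was below it by this measure in both libraries and in both quantifications. The TPM ranges of Camk2a and Camk2b overlapped, though Camk2a was slightly higher within each library. The kallisto-layout table turned their order round, with Camk2b at 34.5 ± 0.42% and Camk2a at 32.0 ± 0.26%.

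Camk2b was spliced in part to a long form. Camk2b-209 held 64.6% of the gene's TPM in replicate 2 and 67.2% in replicate 1, and Camk2b-202 held 31.0% in replicate 2 and 28.8% in replicate 1. Camk2b-202 has 24 exons and a coding sequence of 1998 bases, against 21 exons and 1626 bases in Camk2b-209. The added length lies in 3 exons of the region between the regulatory segment and the association domain, a form known from muscle as βM. An exon of 114 bases and an exon of 129 bases among them are shown because of their unusual content, with proline codons in capitals (reverse strand, in the order of the transcript, chr11:5978399-5978512 and chr11:5977812-5977940).
Camk2b exon of 114 bases: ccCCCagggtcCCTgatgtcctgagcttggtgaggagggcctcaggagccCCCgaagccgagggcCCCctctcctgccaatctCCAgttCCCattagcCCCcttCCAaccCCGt
Camk2b exon of 129 bases: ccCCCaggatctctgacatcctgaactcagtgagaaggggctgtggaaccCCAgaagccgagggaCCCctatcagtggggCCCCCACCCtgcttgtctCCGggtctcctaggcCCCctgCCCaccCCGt
Proline took 9 of the 37 whole codons of the 114-base exon, and 10 of the 42 whole codons of the 129-base exon. The 114-base exon was included in 31.1% of complete coding Camk2b TPM in replicate 2 and 29.4% in replicate 1. The 129-base exon was included in 32.4% in replicate 2 and 31.1% in replicate 1. The kallisto-layout table put both between 30.8% and 33.8%.

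Camk2g was made mainly as full-length kinase, with variable exons in the same region. Camk2g-202 held 37.6% of the gene's TPM in replicate 2 and 35.1% in replicate 1, and Camk2g-203, which lacks a 69-base exon, 16.4% in replicate 2 and 20.1% in replicate 1. That exon (chr14:20745792-20745860) was included in 73.7% of complete coding TPM in replicate 2 and 67.6% in replicate 1. Camk2g-201 also carries a 33-base exon (chr14:20747819-20747851, reverse strand), shown because it opens with 3 basic codons in a row, in capitals; exons of this kind in CaMKII genes are known to hold a nuclear localization signal.
Camk2g exon of 33 bases: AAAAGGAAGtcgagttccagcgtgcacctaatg
This exon was included in 13.3% of complete coding TPM in replicate 2 and 11.0% in replicate 1, and in the kallisto-layout table in 24.0% in replicate 2 and 23.8% in replicate 1. The short transcript Camk2g-215 (535 bases, annotated as not coding) took 20.3% of the gene's TPM in replicate 2 and 23.9% in replicate 1, but 3.68% of its counts in replicate 2 and 4.37% in replicate 1.

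Camk2d was the CaMKII gene whose transcripts were least well resolved. Its kinase domain holds a choice between 2 exons of 73 bases, which are 68.5% identical; they are shown because they end in the catalytic loop of the kinase, with its arginine and lysine codons in capitals (chr3:126770785-126770857 and chr3:126771774-126771846, forward strand).
Camk2d upstream exon of 73 bases: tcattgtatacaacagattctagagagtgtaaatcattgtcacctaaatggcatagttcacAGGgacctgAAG
Camk2d downstream exon of 73 bases: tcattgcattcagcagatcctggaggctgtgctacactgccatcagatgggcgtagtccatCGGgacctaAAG
The upstream exon was in 72.0% of complete coding TPM in replicate 2 and 88.0% in replicate 1, and the downstream exon in 28.0% in replicate 2 and 12.0% in replicate 1. The kallisto-layout table put the downstream exon at 36.2% in replicate 2 and 23.7% in replicate 1, and it held 15.7% of the expected counts of complete coding transcripts in replicate 2 and 6.05% in replicate 1. In both tables its share was higher in replicate 2, and the libraries lay farther apart here than for any other variable exon described. A 60-base exon (chr3:126805857-126805916) was in 74.6% in replicate 2 and 84.2% in replicate 1, and a 42-base exon (chr3:126808208-126808249) in 82.5% in replicate 2 and 84.2% in replicate 1. The kallisto-layout table put both at 96.1% in replicate 2 and 99.0% in replicate 1.

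The Camk2d forms behind these shares were uncertain. Camk2d-206 held 27.3% of the gene's TPM in replicate 2 and 33.4% in replicate 1, and Camk2d-221, which uses the downstream 73-base exon, 17.6% in replicate 2 and 6.86% in replicate 1. The posterior SD reached 30.8% of the count of Camk2d-221 in replicate 1 and 125% of that of Camk2d-228 in replicate 2. The RSEM table gave the retained-intron transcript Camk2d-217 30.2% in replicate 2 and 36.2% in replicate 1 and listed Camk2d-218 (591 bases, against 618) at 0. The kallisto-layout table listed Camk2d-217 at 0 and Camk2d-218 at 19.5% in replicate 2 and 24.0% in replicate 1.

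**Figure D3:**
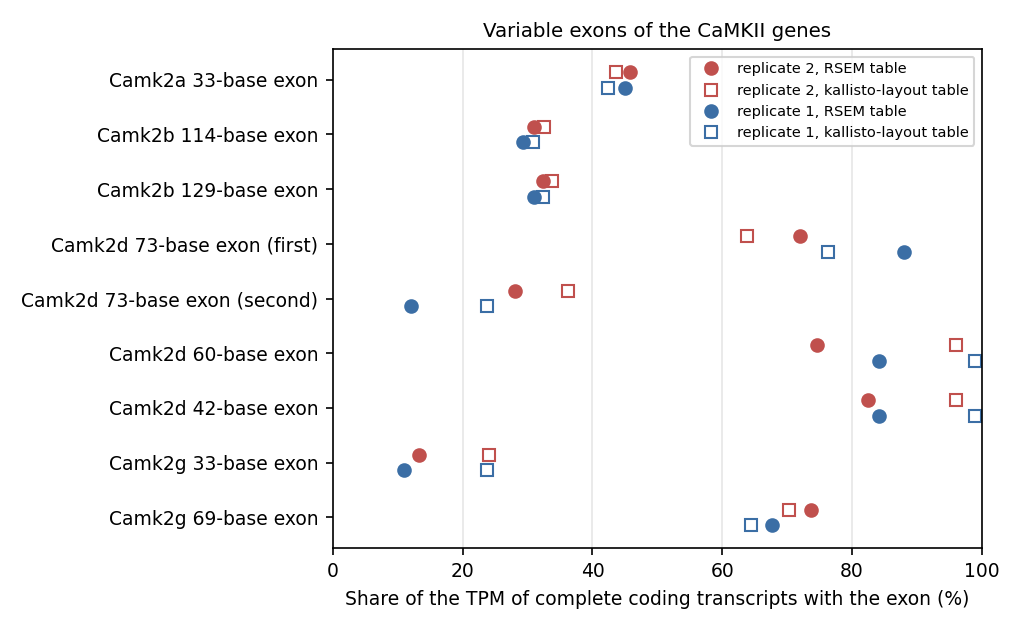
Share of the TPM of each gene's complete coding transcripts that includes a variable exon, in percent, for replicate 2 and replicate 1, from the RSEM transcript table (filled circles) and the kallisto-layout table (open squares). The Camk2b exons lie between 29.4% and 33.8% in every case, and the upstream Camk2d 73-base exon lies at 72.0% in replicate 2 and 88.0% in replicate 1 of the RSEM table.

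Hdac5 and Hdac4 made up most of the class IIa deacetylase level. Hdac5 (ENSMUSG00000008855.17, chromosome 11, 102194432 to 102230166) stood at 36.2 TPM in replicate 2 and 38.3 TPM in replicate 1, a mean of 37.3 ± 1.5 TPM. Hdac4 (ENSMUSG00000026313.16, chromosome 1, 91928779 to 92195699) stood at 24.8 TPM in replicate 2 and 28.1 TPM in replicate 1, a mean of 26.5 ± 2.4 TPM. Of the summed level of 71.0 ± 3.2 TPM, Hdac5 held 52.5 ± 0.25%, Hdac4 37.2 ± 1.7%, Hdac9 5.29 ± 2.2% and Hdac7, the class IIa gene best known from endothelium and thymocytes, 5.02 ± 0.77%.

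Much of the Hdac4 and Hdac5 level was not in complete coding transcripts. For Hdac4 these took 32.9% of TPM in replicate 2 and 25.8% in replicate 1, but 78.9% of the counts for replicate 2 and 71.4% for replicate 1. Hdac4-204, a 407-base transcript annotated as not coding, took 31.3% of TPM in replicate 2 and 34.7% in replicate 1 on 3.27% of the counts in replicate 2 and 3.79% in replicate 1. The main coding form, Hdac4-202 (8100 bases), took 25.4% of TPM in replicate 2 and 24.5% in replicate 1, on 69.1% of the counts in replicate 2 and 69.6% in replicate 1.

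For Hdac5, complete coding transcripts took 31.2% of TPM in replicate 2 and 36.4% in replicate 1, and 54.0% of counts in replicate 2 and 63.2% in replicate 1. The kallisto-layout table gave them 46.7% of TPM in replicate 2 and 42.7% in replicate 1, which turned the order of the libraries round. Of the estimated counts there, they took 62.9% in replicate 2 and 63.7% in replicate 1. Retained-intron transcripts took 44.5% of TPM in replicate 2 and 48.2% in replicate 1 of the RSEM table, but 24.8% in replicate 2 and 33.0% in replicate 1 of the kallisto-layout table. Of the expected counts they took 15.3% in replicate 2 and 16.5% in replicate 1. Hdac5-211, a retained-intron transcript of 754 bases, held 22.9% of TPM in replicate 2 and 20.5% in replicate 1 in the RSEM table, against 0 in replicate 2 and 1.11% in replicate 1 in the kallisto-layout table. Hdac5-205, annotated as a target of nonsense-mediated decay, took 29.2% of Hdac5's counts in replicate 2 and 19.4% in replicate 1. Its posterior SD was 19.7% of the count in replicate 2 and 26.8% in replicate 1, so these shares were loosely set. Total RNA without selection for poly(A) was sequenced, and whether the retained-intron reads came from unfinished RNA was not tested.

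By complete coding transcripts, Hdac9 came closer to the other deacetylases. Hdac5 then stood at 11.3 TPM in replicate 2 and 13.95 TPM in replicate 1, and Hdac4 at 8.14 TPM in replicate 2 and 7.25 TPM in replicate 1. Hdac9 stood at 4.40 TPM in replicate 2 and 2.59 TPM in replicate 1, and Hdac7 at 1.93 TPM in replicate 2 and 2.04 TPM in replicate 1. The order of the 4 genes was the same in both libraries and in the kallisto-layout table.

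**Figure D4:**
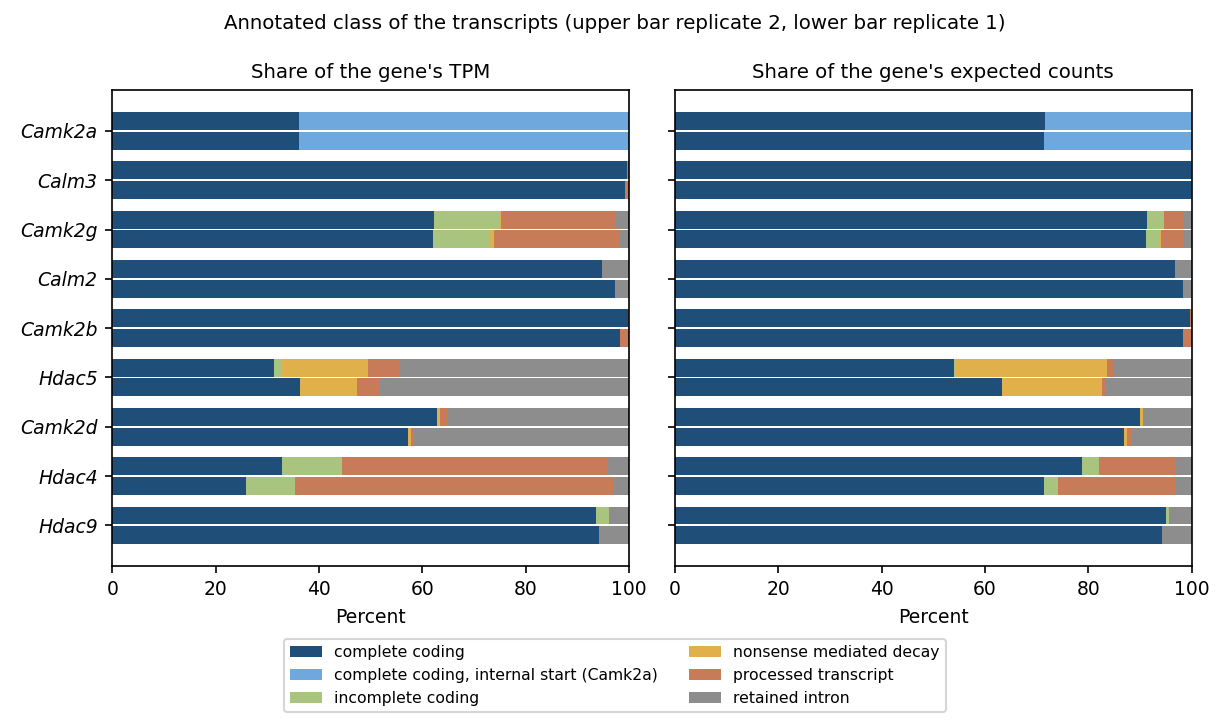
Share of each gene's TPM (left) and of its expected counts (right) in percent by annotated transcript class, from the RSEM transcript table, with replicate 2 above replicate 1. Camk2a is split into full-length forms and forms with an internal start, which take 63.9% of TPM and 28.4% of counts in replicate 2; complete coding transcripts take 32.9% of the TPM of Hdac4 and 31.2% of that of Hdac5 in replicate 2.

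Hdac9 (ENSMUSG00000004698.10, chromosome 12, 34047580 to 34917095) was made mostly as short forms. Hdac9-201, Hdac9-208 and Hdac9-203 have coding sequences of at most 1764 bases and lack the downstream exons of the deacetylase domain, against 3192 bases in Hdac9-205. This is the structure of MITR, a truncated form known to repress MEF2 targets without a deacetylase domain of its own. The short forms held 85.5% of the gene's TPM in replicate 2 and 86.9% in replicate 1. The 4 long coding forms together held 8.09% in replicate 2 and 7.27% in replicate 1, or 0.38 TPM in replicate 2 and 0.20 TPM in replicate 1. Of the expected counts, the long forms held 12.4% in replicate 2 and 10.4% in replicate 1. The 14-3-3 serine shown for Hdac9-201 was also in Hdac9-208, at codon 192.

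The difference between the libraries was small for every member except Hdac9. It is given as the log2 ratio of replicate 2 over replicate 1 after scaling of the counts, with an exact 95% interval for counting error alone. Hdac9 had 405 counts in replicate 2 against 250 in replicate 1, which gave a log2 ratio of 0.75 (0.52 to 0.98), and 0.70 in the kallisto-layout table. It was the only member that differed at least 1.5-fold in either direction. Of all genes, 8.98% did so at a mean count of 10 or more and 1.22% at 100 or more. No member differed 2-fold, as 2.89% of genes did at a mean count of 10 or more. The other 8 members lay between -0.05 and 0.07. Calm3 had a log2 ratio of -0.05 (-0.09 to -0.01), the only other interval away from 0, where 20.9% of all genes had such an interval. That sign turned under scaling to the spike-in totals, which gave 0.04.

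**Figure D5:**
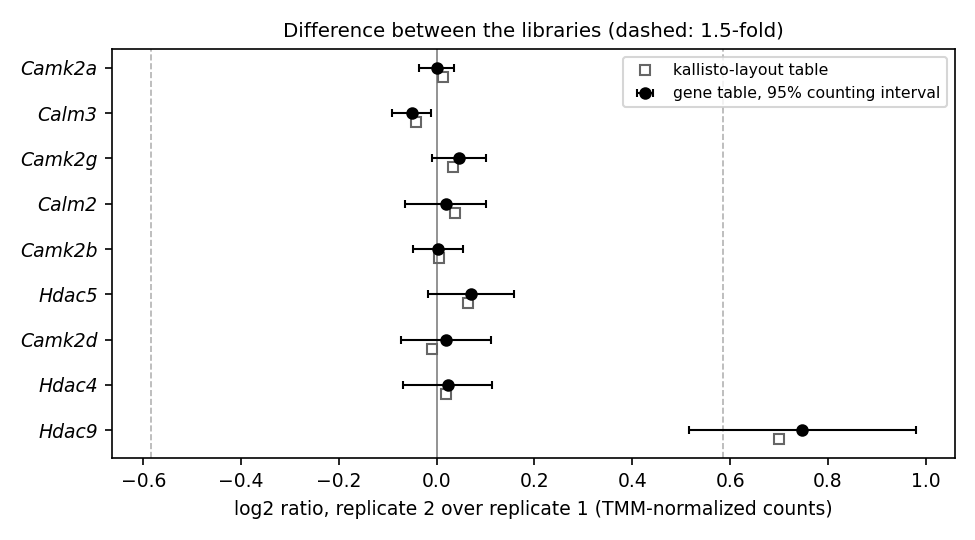
log2 ratio of replicate 2 over replicate 1 for the 9 genes, from the gene table with its exact 95% counting interval (filled circles and bars) and from the kallisto-layout table (open squares); dashed lines mark 1.5-fold. Hdac9 lies at 0.75 and the other 8 genes between -0.05 and 0.07.

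Most of the Hdac9 counts were in its short forms, with 335 in replicate 2 and 210 in replicate 1. The 4 long coding forms were also higher in replicate 2, with 50.1 counts against 25.9 in replicate 1. The short form Hdac9-203 went the other way, with 0 counts in replicate 2 and 10.8 in replicate 1. Hdac9-201 had 256 counts in replicate 2 against 179 in replicate 1, which gave a log2 ratio of 0.57 (0.29 to 0.85). Hdac9-208 had 78.6 counts in replicate 2 against 20.1 in replicate 1, which gave a log2 ratio of 2.01 (1.31 to 2.82). The posterior SD of Hdac9-208 was 15.1% of the count in replicate 2 and 39.0% in replicate 1, which the interval does not cover. No further replicate was measured. All 6 endothelial markers had lower ratios, with a median of -0.42 and sums of 43.8 TPM in replicate 2 and 60.8 TPM in replicate 1. The 5 fibroblast markers summed to 246 TPM in replicate 2 and 241 TPM in replicate 1, and the 4 smooth muscle markers to 54.3 TPM in replicate 2 and 61.5 TPM in replicate 1. The 4 leukocyte markers summed to 26.4 TPM in replicate 2 and 30.1 TPM in replicate 1, and the 4 Schwann cell markers to 13.1 TPM in replicate 2 and 17.4 TPM in replicate 1. These sums are deposited TPM, without the scaling used for the ratios. By the scaled ratio, the fibroblast median was 0.19 with 4 above 0 and 1 below, and the smooth muscle median 0.08 with 3 and 1. The leukocyte median was -0.08 and the Schwann cell median -0.11, each with 1 above 0 and 3 below. The part of these cell types in the Hdac9 difference was not tested.

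Other genes of the pathway were largely expressed too. Of 72 listed genes, 54 reached 1 TPM in both libraries, and 61 had a mean count of 10 or more. Of all 55536 annotated genes, 11240 reached 1 TPM in replicate 2 and 11508 in replicate 1, and 14361 had a mean count of 10 or more. Of the 61 listed genes, 3 were at least 1.5-fold higher in replicate 2 and 1 was at least 1.5-fold lower, against 4.29% and 4.69% of all genes. These 4 were named after their values were seen, and all had low counts: Camkk1 (18 in replicate 2 and 11 in replicate 1), Prkd1 (81 in replicate 2 and 55 in replicate 1), Sfn (20 in replicate 2 and 13 in replicate 1) and Calml4 (7 in replicate 2 and 14 in replicate 1). No listed gene with a mean count of 100 or more differed 1.5-fold.

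Proteins that calmodulin binds in muscle were the most abundant group, with 12 of 14 at 1 TPM or more. Mylk4, a myosin light chain kinase family gene, stood at 1111 TPM in replicate 2 and 1041 TPM in replicate 1. Ryr1, the calcium release channel of the sarcoplasmic reticulum, stood at 806 TPM in replicate 2 and 882 TPM in replicate 1. Calml4, a calmodulin-like gene, stood at 0.38 TPM in replicate 2 and 0.76 TPM in replicate 1.

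The other CaM kinases listed were each below every CaMKII gene by gene TPM. Of the 10 genes of this list, which also holds CaMKII partners, 4 reached 1 TPM. Camk1, a monomeric CaM kinase, stood at 16.6 TPM in replicate 2 and 19.2 TPM in replicate 1. Camk2d, the lowest CaMKII gene, stood at 26.5 TPM in replicate 2 and 27.6 TPM in replicate 1. Its kinase-coding transcripts, at 16.65 TPM in replicate 2 and 15.74 TPM in replicate 1, were no higher than Camk1 in both libraries. Pnck, of the same family as Camk1, stood at 3.88 TPM in replicate 2 and 4.63 TPM in replicate 1. Camk4, the nuclear CaM kinase known from neurons and T cells, had 1 count in replicate 2 and 3 counts in replicate 1.

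Regulators and partners of class IIa deacetylases were mostly expressed. Of the kinases and phosphatases 10 of 11 reached 1 TPM, led by Ppp1cb, a catalytic subunit of protein phosphatase 1, at 187 TPM in replicate 2 and 224 TPM in replicate 1. Ppp2r1a, a scaffold subunit of protein phosphatase 2A, stood at 42.6 TPM in replicate 2 and 38.6 TPM in replicate 1. Of the 14-3-3 genes 6 of 7 reached 1 TPM, led by Ywhae with 221 TPM in replicate 2 and 248 TPM in replicate 1 and Ywhag with 131 TPM in replicate 2 and 140 TPM in replicate 1. All 8 other histone deacetylase genes reached 1 TPM, led by Hdac3, the partner of class IIa enzymes in the NCoR complex, at 24.0 TPM in replicate 2 and 24.7 TPM in replicate 1, and Hdac2 at 20.7 TPM in replicate 2 and 22.9 TPM in replicate 1.

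Downstream, 7 of 8 MEF2 and corepressor genes reached 1 TPM. Mef2c stood at 219 TPM in replicate 2 and 208 TPM in replicate 1, and Mef2d at 78.3 TPM in replicate 2 and 82.8 TPM in replicate 1. Of 9 genes known as targets of class IIa deacetylases in muscle, 6 reached 1 TPM. Slc2a4, the insulin-regulated glucose transporter, led with 167 TPM in replicate 2 and 184 TPM in replicate 1, and Musk, the kinase of the neuromuscular junction, followed with 17.7 TPM in replicate 2 and 22.2 TPM in replicate 1. The median log2 ratio of the 8 targets with a mean count of 10 or more was -0.09, with 1 above 0 and 7 below, against a median of 0.00 for all genes. Only Musk, at -0.16 (-0.26 to -0.05), and Ppargc1a, at -0.28 (-0.39 to -0.16), had counting intervals away from 0. Over all pathway lists, 34 of 61 genes at that minimum were above 0 and 27 below. A link of these targets to the Hdac9 difference was not tested.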

How the data were processed

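Each library came with 3 deposited tables on mm10 with GENCODE M21: genes, transcripts with RSEM's columns, and transcripts with kallisto's columns. Not given in the sources used here are the program versions and the strand setting of the counting, while the labels' protocols name a directional kit with ribosomal RNA reduced. Per the file headers, the authors' gene and RSEM tables hold expected counts, TPM, FPKM, isoform percentages and posterior SDs of the counts. The deposited kallisto-layout table holds estimated counts and TPM, which were summed per gene. Deposited FPKM served only to check the order of levels, and the isoform percent was recomputed as a share of TPM.

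Rows for spike-ins and phiX were left out of library sizes. Expected counts were rounded for ratios, which used TMM factors (edgeR 4.0.16) over genes averaging 10 counts or more, a prior of 0.5 counts and exact binomial 95% intervals, which cover counting error only since reads are not independent molecules. All genes entered the scaling and the background shares. Only the scaling and ratio steps were tested on simulated data, whose only noise was counting error. Exons and coding sequences were read from the annotation (Python 3.11.15, Biopython 1.88). Gene totals gave the members between 250 and 13228 counts per library.

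No group was compared. Some genes of the lists and some sequences are not reported here. The members, lists and alternatives were chosen with earlier results of these data known. Named genes are the 9 members, transcripts with at least 5% of a gene's TPM in either library of either table, and per pathway list the 2 genes of highest mean TPM and any averaging 100 counts or more that differed 1.5-fold; other names were chosen after their values were seen. With 2 libraries of 1 group, no genes were sought for a like pattern. Alternatives were DESeq2 1.42.0 size factors, library and spike-in totals, deposited TPM, other minimums and prior, the kallisto-layout table, transcript subsets and each library alone. Software was matplotlib 3.10.9, scipy 1.17.1, pandas 2.3.3, numpy 2.4.6 and R 4.3.3.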

Additional observations from a re-analysis of the deposited data

How the results depend on the processing

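No paired analysis was possible because the series holds 1 group of 2 libraries. Leaving out a library removes the ratio, so none is given. Each library alone gave a median member level of 68.6 to 75.1 TPM, 7 to 9 members at the same rank, a Camk2a share of CaMKII of 52.0% to 52.5%, an Hdac5 share of class IIa of 52.3% to 52.6%, a share of Camk2a forms without the kinase exons of 63.8% to 63.9%, a Camk2b-202 share of 28.8% to 31.0% and an Hdac9 short-form share of 85.5% to 86.9%. Dividing by nuclear protein-coding genes alone raised the median member to 160 TPM and kept all 9 ranks. The kallisto-layout table kept 5 ranks and gave 53.2% for Camk2a, 46.7% for Hdac5, 68.1% for the Camk2a forms and 84.9% for the Hdac9 short forms. Shares of expected counts, not scaled for length, were 49.0% for Camk2a, 44.4% for Hdac5, 28.5% for the Camk2a forms, 19.0% for Camk2b-202 and 83.3% for the Hdac9 short forms. Protein-coding transcripts alone gave 57.3% for Camk2a and 44.5% for Hdac5. Added after seeing the data, complete coding transcripts gave 58.9% for Camk2a and 48.9% for Hdac5, and those with the autophosphorylation motif 34.2% for Camk2a. Hdac9 remained the only member past 1.5-fold under all 9 alternatives, with log2 ratios of 0.68 to 0.84, and the other 8 lay between -0.19 and 0.16. Deposited TPM moved the median of all genes by -0.13, and the members' median to -0.10. Minimums of 0.5 and 5 TPM gave 58 and 39 of 72 pathway genes. At 250 counts in the lower library, counting error alone gives the Hdac9 ratio the interval stated above. That interval leaves out any other variation between libraries.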
